A study of Mus musculus with 14 samples.

Results

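The RNA of primary bone marrow-derived macrophages (pBMDMs) exposed to 4OHT+Fer1 supernatants was compared with that of pBMDMs exposed to Fer1 supernatants, over all genes that passed a filter on low counts. The comparison took 6 of the 14 samples of the series, 3 in each group, paired by the replicate number in their titles. The macrophages were wildtype cells of C57BL/6N mice, differentiated with M-CSF, and received the filtered supernatants of Pfa1 cells for 24 h. Pfa1 cells are a line of embryonic fibroblasts of the mouse (MEFs), and 4-hydroxytamoxifen (4OHT) switches on the deletion of Gpx4 in them. In the Fer1 group the MEFs had received Ferrostatin-1 (Fer-1) alone, and in the 4OHT+Fer1 group 4OHT and Fer-1, so the MEFs of both groups were exposed to the inhibitor of ferroptosis. The comparison therefore asked how macrophages respond to 4OHT treatment and GPX4 loss in MEFs that Fer-1 keeps alive. 4OHT itself, where the filtered supernatant carried it over, and the deletion of Gpx4 in the MEFs were present in the same samples and cannot be told apart. The other groups were supernatants of MEFs without treatment (ctrl) and with 4OHT and no inhibitor (4OHT, the supernatant of dying cells), with 3 samples each, and fresh medium with 2 samples.

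GPX4 is the glutathione peroxidase that reduces lipid hydroperoxides in membranes, and cells that lose it die by ferroptosis unless a radical-trapping compound such as Fer-1 stops the chain of lipid peroxidation. Macrophages take up and sense material from other cells, and answer with cytokines, growth factors and changes in lipid metabolism. Cholesterol synthesis in these cells is set by SREBP2, a transcription factor that INSIG1 holds back in the endoplasmic reticulum when sterols are plentiful and that drives the genes of the mevalonate and sterol pathway when they are scarce.

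The 6 libraries had 8901921 to 10123845 estimated counts, and a level of 3 counts, taken as the smallest that could be told from none, was 0.296 to 0.337 CPM (counts relative to the library total, with TMM factors), a limit of counting error only. Summed over 10 macrophage markers, the level was 22842 to 30002 CPM in 4OHT+Fer1 and 22476 to 28406 CPM in Fer1. Of the markers of other cell types, 20 fibroblast genes summed to 32.6 to 196 and 33.6 to 227 CPM with Thy1 at 0 in all 6 samples, and 12 neutrophil genes to 29.0 to 58.2 and 31.8 to 51.7 CPM with Elane and Ly6g at 0. 8 B cell genes summed to 160 to 190 and 173 to 191 CPM with Pax5 at 0. Markers of dendritic cells, T and NK cells, mast cells and basophils, and erythroid cells summed to at most 20.3 CPM in any sample. None of the markers tested was called, and 1, the neutrophil gene Camp, had an unadjusted p under 0.05. Replicate 1 of 4OHT+Fer1 stood apart from the other samples: Rn18s-rs5, an annotated ribosomal RNA sequence, took 3.60% of its counts against 5.95% to 7.65% in the other 5. Results were therefore also computed without that library. In bulk RNA, fewer cells of a type and less RNA per cell cannot be told apart.

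pBMDMs exposed to 4OHT+Fer1 supernatant had less mRNA of 3 genes than those exposed to Fer1 supernatant. These were Vegfa, which encodes the vascular endothelial growth factor A, Nlrp3, which encodes the sensor of the NLRP3 inflammasome, and Klk1b11, a member of the kallikrein 1 family of serine proteases. Vegfa was 8.81-fold, Klk1b11 7.07-fold and Nlrp3 4.46-fold lower, and 0 genes were called higher. A gene was called when it differed more than 2-fold with an adjusted p under 0.05 (edgeR quasi-likelihood F-test, Benjamini-Hochberg over 12851 genes), which makes the 3 genes 0.0233% of those tested. At an unadjusted p under 0.05 stood 266 genes, 174 of them lower (1.35% of the genes tested) and 92 higher (0.716%). The same threshold took 2.07% of genes here, 10.8% in 4OHT against ctrl and 1.14% in Fer1 against ctrl. Evenly spread p-values, as without any difference, would put a proportion of 0.05 of the genes under it. The 2.07% lies below that. So does the 1.14% of Fer1 against ctrl, where 0 genes were called, so p-values of this fit may not spread evenly without a difference. The share under the threshold therefore cannot decide whether the 266 genes are an excess of small p-values. The count of called genes depended on the model. It was 9 with DESeq2 (8 lower and 1 higher), and edgeR without the filter on low counts called the same 9. These were the 3 genes together with Bcl2a1b, Creb5, Tgm2, Enc1 and Mex3b on the lower side and the predicted gene Gm49391 on the higher side, the last named after its value was seen. It was 1 gene (Vegfa) without the replicate block, and 0 when the 2 groups were fitted without the others, where the adjusted p of Vegfa was 0.0645 in the edgeR F-test. Leaving out replicate 1, 2 or 3 left 0, 0 and 2 called genes, in the last case Vegfa and Klk1b11.

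**Figure D1:**
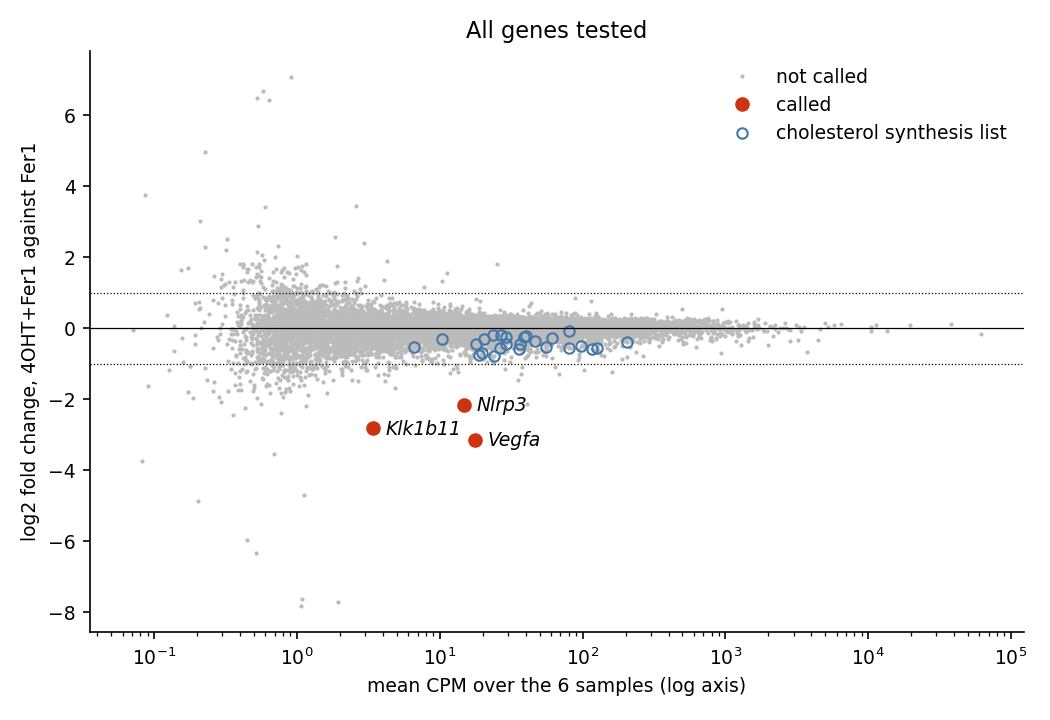
Log2 fold change of 4OHT+Fer1 against Fer1 for each of the 12851 genes tested, against its mean level in CPM over the 6 samples (log axis). Grey points are genes that were not called, filled red points the 3 called genes, and open blue circles the 25 tested genes of the cholesterol synthesis list, all of which lie below 0. Dotted lines mark a 2-fold difference.

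Vegfa (ENSMUSG00000023951, chromosome 17, 46016993 to 46032369 on the minus strand of GRCm38 in the GENCODE M21 annotation) had 4.39, 2.44 and 3.89 CPM in replicates 1, 2 and 3 of 4OHT+Fer1, and 39.8, 31.0 and 24.5 CPM in those of Fer1. The highest 4OHT+Fer1 sample was far below the lowest Fer1 sample. Of all genes tested, 3.2% had every 4OHT+Fer1 sample below every Fer1 sample and 2.89% had every one above. The log2 fold change was -3.14 (SE 0.25, adjusted p = 0.000433, edgeR F-test, Benjamini-Hochberg), and it lay between -2.94 and -3.39 over the 11 alternatives. The samples without Fer-1 share none of these libraries, but share the replicate numbers and the fit. In them Vegfa had 10.5, 10.6 and 7.85 CPM in 4OHT and 40.01, 32.7 and 45.6 CPM in ctrl (log2 fold change -2.03, adjusted p = 0.00406, edgeR). Fresh medium gave 57.0 and 67.3 CPM, the highest levels of the series. The difference with Fer-1 exceeded that without it by -1.11 on the log2 scale, which did not pass the test of the difference (adjusted p = 0.471, edgeR).

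Nlrp3 (ENSMUSG00000032691, chromosome 11, 59541568 to 59566956, plus strand) had 8.16, 4.35 and 3.79 CPM in 4OHT+Fer1 and 25.4, 27.0 and 19.4 CPM in Fer1. The groups did not overlap, and replicate 1 of 4OHT+Fer1 was the sample nearest to the Fer1 group. The log2 fold change was -2.16 (SE 0.27, adjusted p = 0.0194, edgeR F-test, Benjamini-Hochberg), and without that library it was -2.51 (adjusted p = 0.0115, edgeR). Without Fer-1, Nlrp3 had 9.90, 11 and 5.19 CPM in 4OHT and 20.5, 24.1 and 25.5 CPM in ctrl (log2 fold change -1.48, adjusted p = 0.0212, edgeR).

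Klk1b11 (ENSMUSG00000044485, chromosome 7, 43995877 to 43999875, plus strand) was a gene of low level, with 0.732, 1.49 and 0.307 CPM in 4OHT+Fer1 and 7.24, 8.97 and 1.76 CPM in Fer1. In each group replicate 3 was the lowest, and the ranges did not overlap. The counts behind these values summed to 24 in 4OHT+Fer1 and 175 in Fer1, a ratio of 7.29 with an exact interval of 4.74 to 11.7 that covers counting error only. The log2 fold change was -2.82 (SE 0.36, adjusted p = 0.0194, edgeR F-test, Benjamini-Hochberg), and without replicate 1 of 4OHT+Fer1 it was -2.51 and no longer called (adjusted p = 0.175, edgeR). In 4OHT against ctrl it was -2.06 (adjusted p = 0.0128, edgeR). The kallikrein 1 genes of the mouse are close copies of each other, so that the division of reads among them is uncertain.

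**Figure D2:**
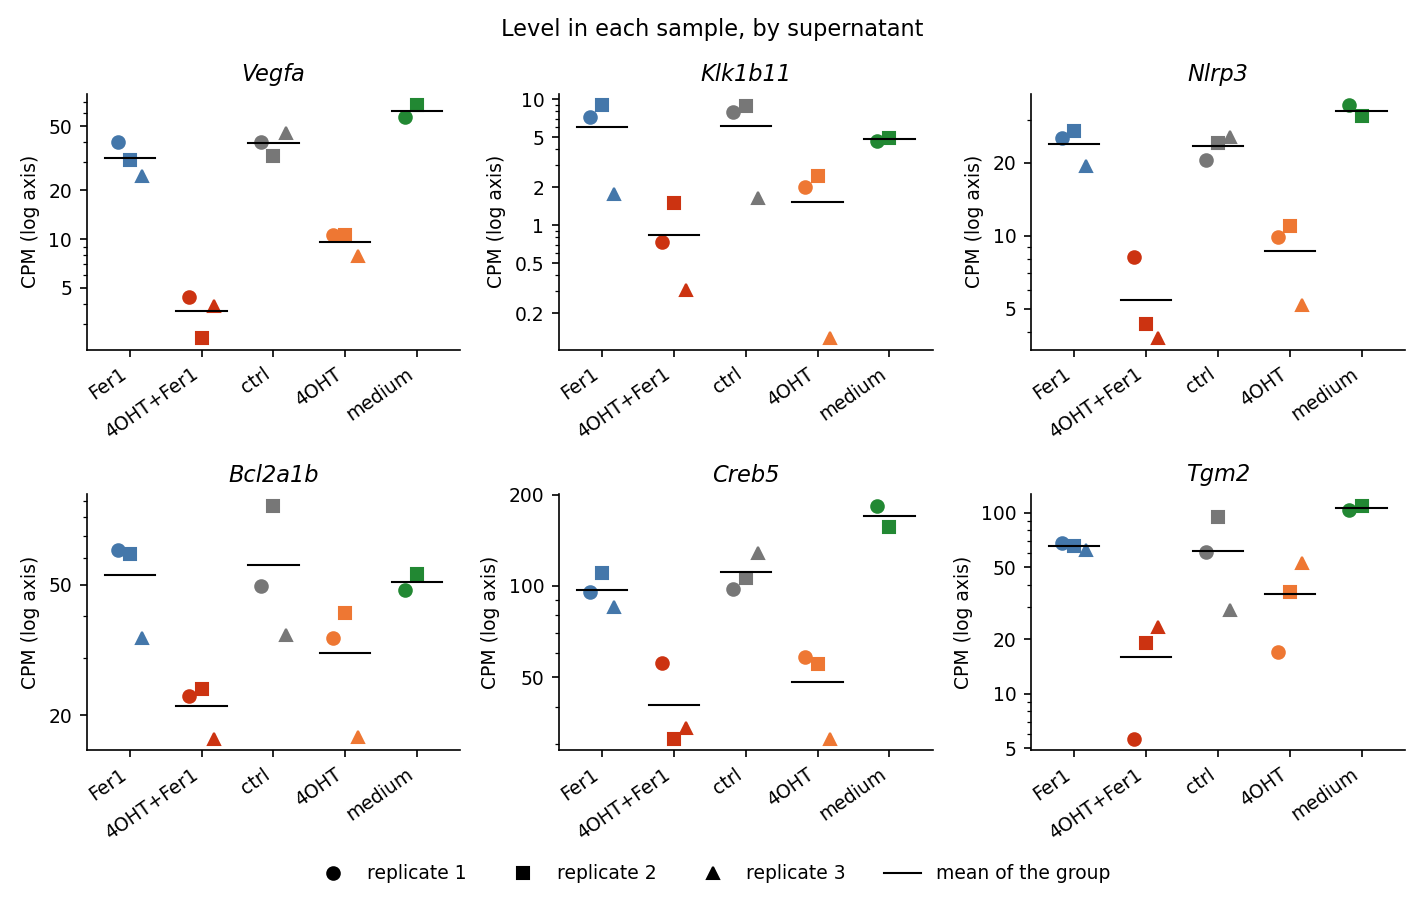
Level in CPM (log axis) of 6 genes in each of the 14 samples, by supernatant, where the symbol gives the replicate and the line the mean of the group. Vegfa, Klk1b11 and Nlrp3 were called in 4OHT+Fer1 against Fer1, and Bcl2a1b, Creb5 and Tgm2 were not. In all 6 panels, whose genes have small p-values, every 4OHT+Fer1 sample lies below every Fer1 sample, as was so for 3.2% of all genes tested.

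The 250 bases before the RefSeq start of the called genes are shown as the promoter sequence of the genes the comparison turned on (GRCm38.p6, written 5′ to 3′ on the strand of the gene, chr17:46032378-46032627 for Vegfa, chr7:43995627-43995876 for Klk1b11 and chr11:59541319-59541568 for Nlrp3). RefSeq gives 2 starts for Vegfa and for Nlrp3, of which the outer one is shown. Capitals mark CCAAT, the letters of the CCAAT box, read on both strands.
Vegfa: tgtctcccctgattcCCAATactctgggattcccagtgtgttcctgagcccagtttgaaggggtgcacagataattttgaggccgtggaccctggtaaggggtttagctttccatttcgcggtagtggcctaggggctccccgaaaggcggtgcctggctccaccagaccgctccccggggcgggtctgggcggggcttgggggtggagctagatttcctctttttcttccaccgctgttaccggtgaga
Klk1b11: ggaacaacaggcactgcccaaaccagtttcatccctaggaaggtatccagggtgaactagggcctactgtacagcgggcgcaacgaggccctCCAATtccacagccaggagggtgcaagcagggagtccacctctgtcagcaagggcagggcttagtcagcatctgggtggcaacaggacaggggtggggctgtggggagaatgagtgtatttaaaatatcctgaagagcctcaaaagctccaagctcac
Nlrp3: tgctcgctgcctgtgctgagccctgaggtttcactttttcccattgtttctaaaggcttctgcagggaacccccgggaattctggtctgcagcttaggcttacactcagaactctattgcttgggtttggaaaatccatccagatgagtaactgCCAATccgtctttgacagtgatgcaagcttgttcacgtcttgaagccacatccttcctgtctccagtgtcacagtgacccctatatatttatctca
Each window held CCAAT 1 time, and none held the sterol regulatory element TCACNCCAC. Of all 32851 such windows, of genes tested here or not, 33.8% held CCAAT at least 1 time. The 3′ libraries do not show which start was used, and a match of letters is not a measured site.

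Other genes stood lower at small p-values without being called. By the rule for naming, the 12 named genes on the lower side were the 3 called ones and the next 9 by unadjusted p among genes of at least 5 CPM that were lower in every replicate number, a property of 11.9% of all genes tested (12.3% were higher in every replicate number). Bcl2a1b, of the BCL2 family of survival proteins, had 22.9, 24.0 and 17 CPM in 4OHT+Fer1 and 63.8, 61.7 and 34.4 CPM in Fer1. Its log2 fold change of -1.28 did not pass the threshold (adjusted p = 0.0603, edgeR F-test, Benjamini-Hochberg). DESeq2 called it (adjusted p = 4.89e-06), as did edgeR without the filter on low counts (adjusted p = 0.0054), and with samples left out the adjusted p of edgeR was 0.148 to 1. Its close copy Bcl2a1d, for which reads could have been divided differently, had 38.8, 39.8 and 20.1 against 27.0, 44.7 and 18.7 CPM, and the groups overlapped.

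Creb5, a transcription factor of the CREB family, had 55.7, 31.3 and 34.0 CPM in 4OHT+Fer1 and 95.3, 110 and 85.0 CPM in Fer1 (log2 fold change -1.29, adjusted p = 0.30, edgeR, and 0.00115 with DESeq2). Without Fer-1 its log2 fold change was -1.24 (adjusted p = 0.0283, edgeR), so that 4OHT against ctrl called it while the comparison with Fer-1 did not, and the difference of both was -0.04. Tgm2, a transglutaminase that marks alternatively activated macrophages, had 5.65, 19.0 and 23.4 CPM in 4OHT+Fer1 and 67.8, 65.6 and 62.1 CPM in Fer1. The 3 Fer1 samples agreed closely while those of 4OHT+Fer1 spread widely, with replicate 1 the lowest (log2 fold change -2.14, adjusted p = 0.887, edgeR). Without that library the value was -1.72 (adjusted p = 0.906, edgeR). DESeq2 gave Tgm2 an adjusted p of 0.00258 and edgeR without the filter one of 0.00921.

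Enc1, which encodes an actin-binding kelch protein, was at 15.8, 10.9 and 27.2 CPM in 4OHT+Fer1 against 29.5, 32.3 and 55.6 in Fer1 (log2 fold change -1.14). Cgnl1, a protein of cell junctions, gave 6.38, 10.9 and 6.76 against 17.3, 26.3 and 13.3 CPM (log2 fold change -1.23). For Lrp12, a transmembrane protein, the levels were 27.6, 24.0 and 12.5 against 46.6, 50.5 and 25.1 CPM (log2 fold change -0.94). In none of the 3 did the adjusted p of edgeR fall under 0.05 with the filter on low counts, and the groups overlapped for Lrp12 through replicate 3. Without the filter it was 0.0416 for Enc1, and DESeq2 gave adjusted p-values of 0.00258 for Enc1, 0.000169 for Lrp12, which differed less than 2-fold, and 0.118 for Cgnl1. Msmo1 and Hmgcs1, also named on the lower side, belong to cholesterol synthesis. All 12 named genes also had a log2 fold change below 0 in 4OHT against ctrl, 4 of them called and 11 at an unadjusted p under 0.05. In that comparison 0.763% of all genes were called lower and 5.93% were lower at an unadjusted p under 0.05.

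Mex3b, an RNA-binding protein, was below the level set for naming and is given as a gene called in 4OHT against ctrl. It had 0, 0 and 2 counts in the 3 samples of 4OHT+Fer1 and 28, 21 and 14 counts in those of Fer1. The ratio of the summed counts was 31.5 with an exact interval of 8.37 to 266, which covers counting error only, and the adjusted p of edgeR's quasi-likelihood test was 0.113. It was 0.0146 with DESeq2 and 0.0054 in edgeR without the filter on low counts. In 4OHT it had 0.105, 0.363 and 0.127 CPM against 2.13, 3.12 and 2.32 CPM in ctrl.

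On the higher side 0 genes were called, and the 12 named genes had log2 fold changes of 0.35 to 1.18 at unadjusted p-values of 0.00793 to 0.0333. Eif3j2, a copy of a translation initiation factor gene whose reads may be shared with its parent, had 11.9, 6.69 and 13.6 CPM in 4OHT+Fer1 and 3.57, 5.74 and 4.74 CPM in Fer1, and the groups did not overlap. Pvr, the poliovirus receptor and a ligand of lymphocyte receptors, had 13.4, 15.8 and 13.2 against 10.3, 7.41 and 10.2 CPM. Cd274, which encodes PD-L1, had 25.7, 14.3 and 27.3 against 20.0, 12.2 and 16.4 CPM, with overlapping groups. Cdkn1c, an inhibitor of cyclin-dependent kinases, had 9.93, 11.7 and 18.5 against 5.75, 7.93 and 16.2 CPM. The other 8 were Zfp444, Elac1, Krtcap2, Gmpr2, Xlr4a, Fgd2, Zfp944 and Ndrg1. Of the 12, 10 had the same sign in 4OHT against ctrl, where the median log2 fold change over all genes tested was 0.0059. None of the 12 was called there, where 0.35% of all genes were called higher. Cd274 had an adjusted p of 0.0375 there (edgeR F-test), at a log2 fold change of 0.85, less than 2-fold.

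Vegfa is a target of hypoxia-inducible factors, and the list of glycolysis and hypoxia genes was examined with it. Of 34 tested genes, 2 were called lower, beside 0.0233% of all genes called. These were Vegfa, for which the list was examined, and Klk1b11, put in the list with its result known. Neither call is therefore evidence about the list. The median log2 fold change of the list was -0.15, beside 0.01 over all genes tested, and 23 of 34 were below 0, as 48.2% of all genes were. At an unadjusted p under 0.05, 5 genes were lower, the 2 called ones among them, and 1 higher. Of all genes tested, 1.35% were lower and 0.716% higher at that p. Car9, a carbonic anhydrase induced by hypoxia, had 0.523, 0.743 and 0.921 CPM in 4OHT+Fer1 and 2.98, 1.46 and 1.65 CPM in Fer1 (log2 fold change -1.42, unadjusted p = 0.0160 in edgeR's model), with no overlap. P4ha1, a collagen prolyl hydroxylase, had a log2 fold change of -0.36, and Tpi1, the glycolytic triosephosphate isomerase, one of -0.54. Ndrg1, another hypoxia-induced gene, was the gene on the higher side, at 117, 90.6 and 87.2 against 74.1, 71.4 and 74.1 CPM (log2 fold change 0.42). Members of the list thus stood on both sides of 0, and within replicate numbers the median was -0.33, -0.26 and 0.02. The fitted median was -0.0078 without replicate 1 of 4OHT+Fer1, -0.052 without replicate 1 of every group, and -0.28 without replicate 3. In 4OHT against ctrl the log2 fold change was 0.43 for Car9, -0.39 for P4ha1, -0.28 for Tpi1 and 0.20 for Ndrg1.

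Genes of cholesterol synthesis were below 0 as a group, by amounts that no single gene carried past the threshold. All 25 tested genes of the list of 26 had a log2 fold change below 0, with a median of -0.44, and 0 were called. At an unadjusted p under 0.05, 9 of the 25 were lower and 0 higher, beside 1.35% and 0.716% of all genes tested. Lower in every replicate number were 18 of the 25, beside 11.9% of all genes. The 25 genes share the same pairs of libraries and are not independent observations. The list was also chosen with earlier results of these data known. Within replicate numbers 1, 2 and 3 the median of the list was -0.54, -0.26 and -0.62, and over the 11 alternatives the fitted median lay between -0.54 and -0.36. In 4OHT against ctrl the median of the same genes was -0.90, with 8 called lower, as were 0.763% of all genes.

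Enzymes of the pathway were among the genes with the smallest p-values. Hmgcs1, the synthase at the entrance of the mevalonate pathway, had 123, 132 and 57.5 CPM in 4OHT+Fer1 and 185, 164 and 99.7 CPM in Fer1. Replicate 3 was lower than the other replicates in both groups, so that the groups overlapped while every pair differed in the same direction. The log2 fold change was -0.57 (SE 0.13, adjusted p = 1.00, edgeR F-test, Benjamini-Hochberg). Msmo1, which removes methyl groups from lanosterol derivatives, had 114, 115 and 56.8 against 173, 151 and 94.7 CPM (log2 fold change -0.58). DESeq2 placed Msmo1 at an adjusted p of 0.0262 without passing the threshold on the fold change.

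Among other enzymes of the pathway, the log2 fold change was -0.50 for Fdps, the farnesyl diphosphate synthase, and -0.55 for Sqle, the squalene epoxidase. It was -0.74 for the lanosterol synthase Lss, at 27.6, 10.6 and 5.63 against 30.8, 28.9 and 9.69 CPM, and -0.55 for the lanosterol demethylase Cyp51. Ebp, the sterol isomerase that is also known as a binding site of tamoxifen, was the value nearest to 0, at 94.3, 71.7 and 70.6 against 86.2, 85.4 and 74.1 CPM (log2 fold change -0.07, 95% interval -0.34 to 0.21). Of the regulators, Insig1 had 58.8, 55.9 and 23.0 against 79.7, 80.3 and 35.7 CPM (log2 fold change -0.53) and Srebf2, which encodes SREBP2, a log2 fold change of -0.27.

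The promoter of Hmgcs1 is shown as that of a gene long known as a target of SREBP2 (250 bases before the RefSeq start, GRCm38.p6, chr13:119690101-119690350, plus strand). Capitals mark TCACNCCAC, the sterol regulatory element, and CCAAT, the box bound by NF-Y, both read on either strand.
Hmgcs1: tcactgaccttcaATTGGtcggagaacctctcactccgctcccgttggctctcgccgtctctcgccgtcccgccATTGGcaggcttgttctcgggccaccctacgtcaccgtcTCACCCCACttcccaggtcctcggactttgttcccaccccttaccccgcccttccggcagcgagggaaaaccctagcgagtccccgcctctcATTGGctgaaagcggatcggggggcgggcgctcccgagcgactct
It held the sterol regulatory element 1 time and CCAAT 3 times. Of the 25 tested genes, 18 were in the promoter table, with 22 windows. CCAAT was found in 16 of these windows (72.7%) and in 33.8% of all windows, and TCACNCCAC in 1 (4.55%) and in 1.05% of all windows.

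**Figure D3:**
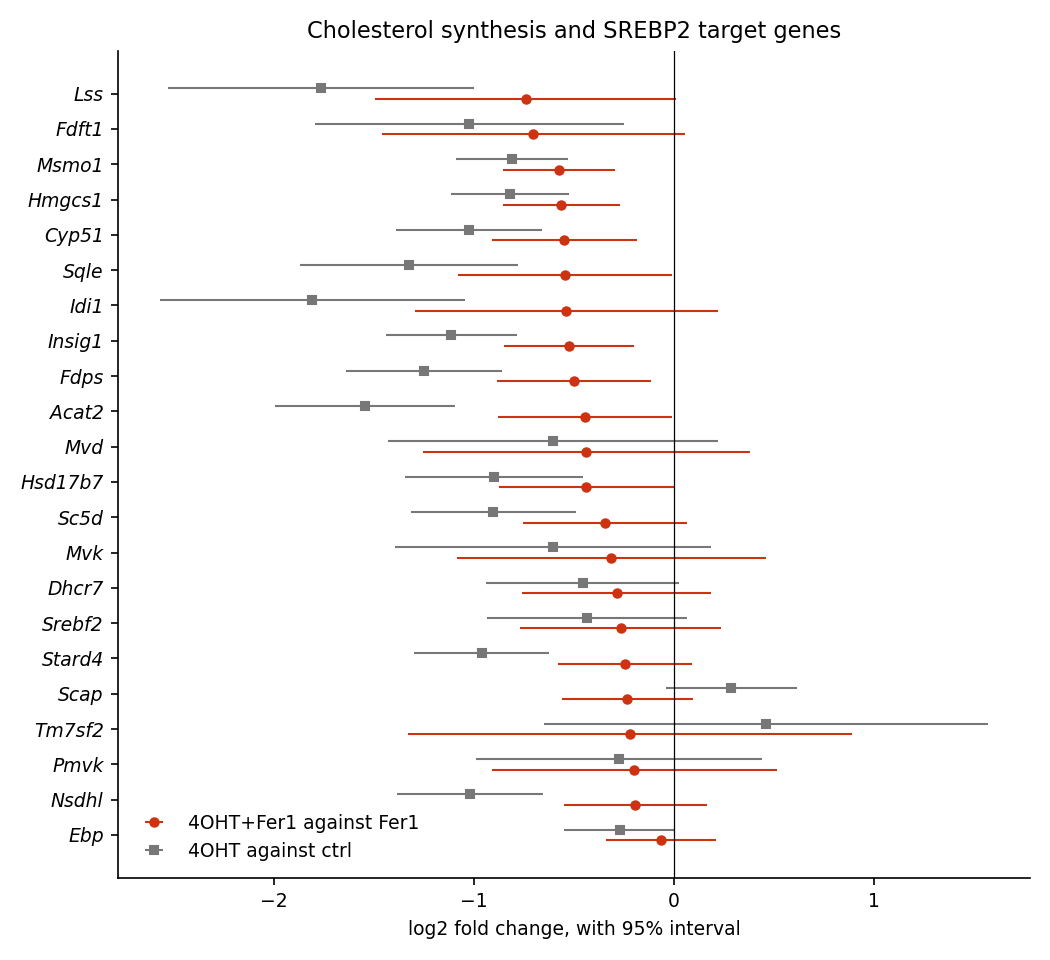
Log2 fold change of 22 of the 25 tested genes of the cholesterol synthesis list with its 95% interval, for 4OHT+Fer1 against Fer1 (red circles) and 4OHT against ctrl (grey squares). These 2 comparisons share no sample, but share the replicate numbers and the fit. All 22 red points lie below 0, and 20 of the 22 grey points lie further to the left than the red ones.

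The difference between both comparisons was itself tested for each sterol gene. The log2 fold change with Fer-1 was above that without it for 23 of the 25 genes. In the test of the difference, 8 of the 25 had an unadjusted p under 0.05, beside 6.20% of all genes tested. Scap, among these 8, went the other way, with a difference of -0.52. The smallest adjusted p of the list was 0.314 (edgeR F-test, Benjamini-Hochberg). For Acat2, which makes acetoacetyl-CoA, the log2 fold change was -0.45 with and -1.55 without Fer-1.

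Most fatty acid genes were below 0 too, by smaller values. Of 15 tested genes, 14 were below 0, with a median of -0.21, and 2 were lower at an unadjusted p under 0.05. These were Fads2, the delta-6 desaturase, at 39.2, 39.1 and 13.9 CPM in 4OHT+Fer1 and 55.5, 64.7 and 20.3 CPM in Fer1 (log2 fold change -0.59), and Scd2, a stearoyl-CoA desaturase, at 99.3, 92.2 and 12.6 against 117, 132 and 20.9 CPM (log2 fold change -0.48). Both were lower in every pair, although replicate 3 was several times below the other replicates in both groups. Scd1 showed no such direction, at 9.83, 11.7 and 2.05 against 12.8, 13.2 and 1.21 CPM (log2 fold change -0.01, 95% interval -0.79 to 0.77). Genes of cholesterol efflux and LXR, the receptor of oxidized sterols, had a median of 0.02 over 15 genes, with 0 at an unadjusted p under 0.05 in either direction.

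Genes of the defence against lipid peroxidation stayed without a call. In the list of ferroptosis control and iron handling, 23 of 29 tested genes were below 0, with a median of -0.17, and 0 had an unadjusted p under 0.05. Gpx4 was the member with the smallest p, at 24.3, 9.13 and 8.40 CPM in 4OHT+Fer1 and 22.1, 25.3 and 13.1 CPM in Fer1 (log2 fold change -0.57, 95% interval -1.30 to 0.16). The macrophages were not the cells in which Gpx4 was deleted, so this level does not check the deletion in the MEFs, whose RNA is not measured in these libraries. Of 26 targets of NRF2, the factor that answers oxidative stress, 22 were below 0, with a median of -0.18. Gsr, the glutathione reductase, had 4.71, 5.52 and 7.68 against 9.52, 12.2 and 12.7 CPM, without overlap (log2 fold change -0.96, unadjusted p = 0.00955 in edgeR's model). Esd, an esterase, had a log2 fold change of -0.31. In 4OHT against ctrl the median of the NRF2 list was 0.10 and that of the ferroptosis list 0.07. The log2 fold change there was 0.13 for Gsr and 0.0019 for Esd.

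Inflammatory genes other than Nlrp3 and Vegfa gave 0 calls. Nlrp3 was the only called gene of 39 in the NF-κB and Toll-like receptor list (median 0.01) and of 19 in the inflammasome and interleukin-1 list (median 0.05), and Vegfa the only one of 51 cytokine and chemokine genes (median -0.01). Il1b, the cytokine that active inflammasomes release, had 2.30, 3.82 and 17.7 CPM in 4OHT+Fer1 and 2.28, 3.13 and 10.4 CPM in Fer1 (log2 fold change 0.45, 95% interval -0.45 to 1.35). Replicate 3 was the highest in both groups. Il1r1, the interleukin-1 receptor, had 1.46, 1.17 and 0.717 against 0.198, 0.104 and 0.551 CPM, levels of few counts (log2 fold change 2.01, unadjusted p = 0.0195 in edgeR's model). Of 40 interferon-stimulated genes 0 had an unadjusted p under 0.05, and their median was 0.06.

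Among surface and growth factor genes, a few stood apart at unadjusted p-values under 0.05 only. Clec10a, a lectin of alternatively activated macrophages, had 26.8, 29.8 and 29.6 CPM in 4OHT+Fer1 and 43.0, 52.7 and 56.0 CPM in Fer1, with no overlap (log2 fold change -0.82). Its relative Mgl2 was near the limit of counting, at 0.105, 0.319 and 0.512 against 0.496, 0.834 and 2.53 CPM. These were 2 of 16 tested scavenger receptors and lectins, whose median was 0.04. In 4OHT against ctrl the log2 fold change was 0.13 for Clec10a and 0.04 for Mgl2. In the list of alternative activation and arginine metabolism, with a median of -0.10 over 21 genes, Tgm2 was the only gene under that p, and Arg2 had a log2 fold change of -0.39. In the list of TGF-β, BMP and Id genes (31 tested, median -0.04), Tgfb1 was on the higher side with a log2 fold change of 0.41 and Tgfb3 with 1.05. Bambi, a decoy receptor, and Id3, an inhibitor of DNA binding, were on the lower side with -2.40 and -0.87. Bambi rested on 5, 0 and 2 counts in 4OHT+Fer1 and 17, 11 and 10 counts in Fer1. The ratio of the summed counts was 5.43 with an exact interval of 2.39 to 14.4 that covers counting error only, and the fitted value was -3.80 without replicate 1 of 4OHT+Fer1 and -1.93 without replicate 2. In 4OHT against ctrl the log2 fold change was 0.63 for Tgfb1, -0.12 for Tgfb3, 0.03 for Bambi and 2.66 for Id3.

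The remaining lists had 0 called genes. Their medians were 0.00 for 44 genes of DNA replication and S phase, -0.06 for 40 genes of mitosis, 0.02 for 12 genes of MHC class II presentation, -0.00 for 40 lysosomal genes and -0.02 for 25 genes of lipid-associated macrophages. In 4OHT against ctrl the medians of the first 3 were -0.91, -1.15 and 0.79. For 11 estrogen receptor and responsive genes the median was -0.00 here (-0.15 without replicate 1 and -0.10 without its 4OHT+Fer1 sample alone), and Esr1, which encodes the estrogen receptor that 4OHT binds, had 8.47, 5.74 and 3.48 against 10.3, 7.82 and 6.17 CPM (log2 fold change -0.49, 95% interval -1.21 to 0.22). The medians were -0.10 for 11 genes of the aryl hydrocarbon receptor and drug metabolism, -0.03 for 22 immediate early genes, 0.04 for 34 genes of ATF4 and endoplasmic reticulum stress and -0.12 for 24 genes of eicosanoid synthesis. In these 2 last lists, Manf and Tbxas1 were the only genes at an unadjusted p under 0.05, with log2 fold changes of -0.54 and -0.29.

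**Figure D4:**
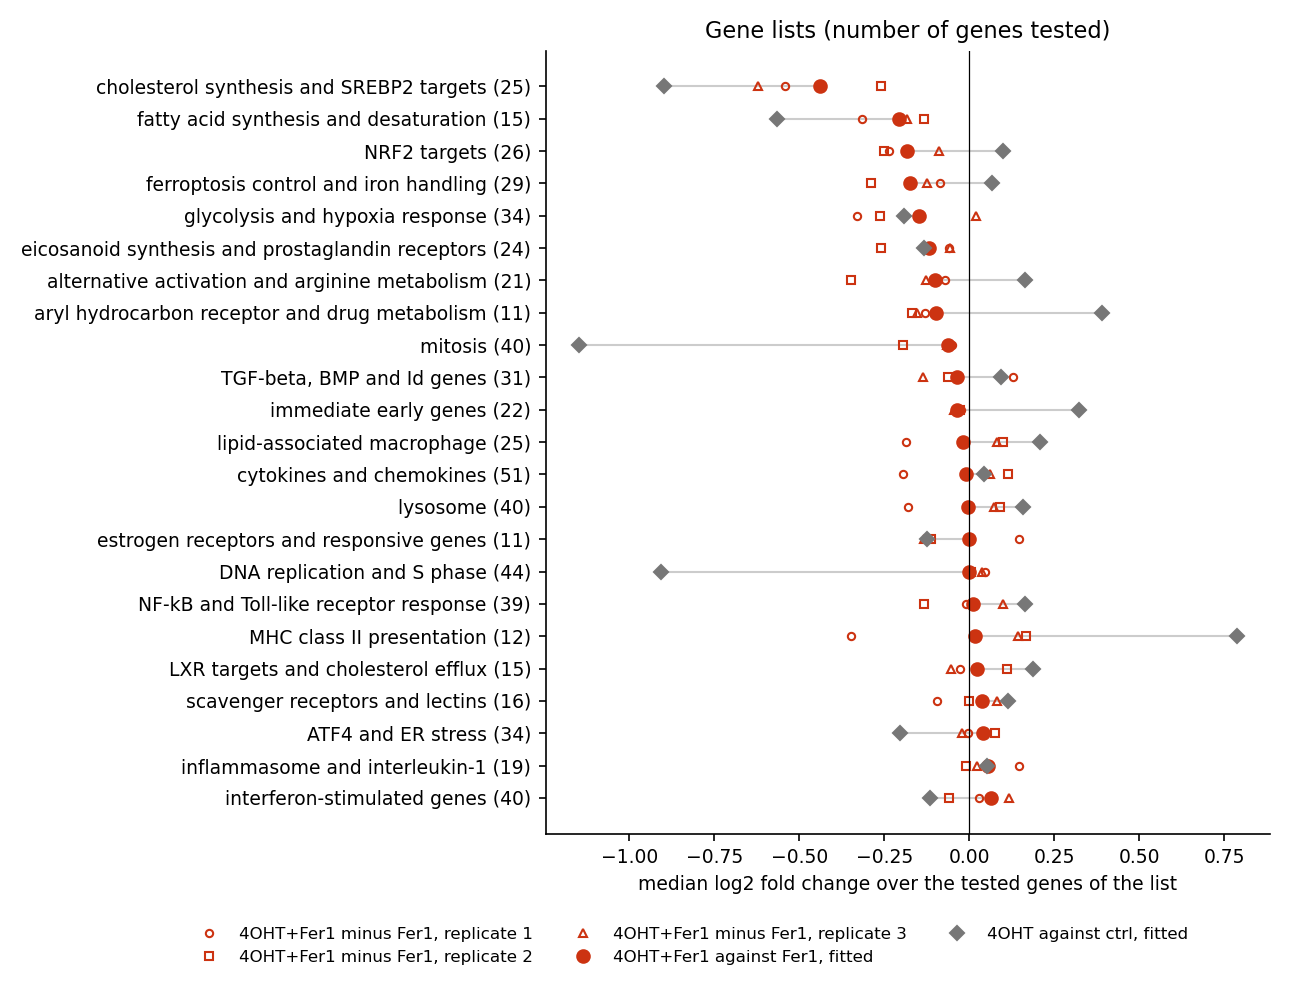
Median log2 fold change over the tested genes of each of the 23 lists, with the number of genes in parentheses, as fitted for 4OHT+Fer1 against Fer1 (filled red circles), within each replicate number (open red symbols) and as fitted for 4OHT against ctrl (grey diamonds). The cholesterol list has the lowest red median, at -0.44, while the medians of the S phase and mitosis lists are near 0 in red and at -0.91 and -1.15 in grey.

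Most genes that responded to the supernatant of dying cells had values near 0 here. Of the 45 genes called higher in 4OHT than in ctrl, 0 were called in 4OHT+Fer1 against Fer1, their median log2 fold change was 0.11 beside 1.67 in 4OHT against ctrl, and 32 had the same sign. That median was 0.011 without replicate 2, 0.036 without replicate 3, 0.22 without replicate 1 and 0.23 without replicate 1 of 4OHT+Fer1 alone. Of the 98 genes called lower, 3 were called here, beside 0.0233% of all genes tested. Their median was -0.03 beside -1.42, and 57 had the same sign. Of all genes tested, 48.2% were below 0. With samples left out the median of the 98 was -0.13 to 0.027, and above 0 without replicate 2. Cd74, the invariant chain of MHC class II, had 94.8, 98.6 and 307 CPM in 4OHT+Fer1 and 85.4, 68.5 and 249 CPM in Fer1 (log2 fold change 0.34, against 1.86 in 4OHT against ctrl). Marco, a scavenger receptor, and Ptger3, a prostaglandin receptor, had log2 fold changes of 0.41 and -0.16 at 3.48 CPM or less in each of the 6 samples, against 3.28 and 2.53 in 4OHT against ctrl.

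The intervals of single genes show how far these data bound a response. For 9086 genes (70.7%) the 95% interval of the log2 fold change lay within 2-fold in either direction. That held for 93.1% of the genes of 10 to 100 CPM and for 96.0% of those above 100 CPM, but for 43.5% of those of 1 to 10 CPM and 0.0965% of those under 1 CPM. Of the 45 genes called higher in 4OHT, 30 had an interval within 2-fold here, and for 44 the interval excluded the value of 4OHT against ctrl. Of the 98 called lower, these counts were 80 and 93. The value of 4OHT against ctrl was taken without its own error, and the genes were chosen by its size. These counts are therefore no test of a difference between the comparisons. The test of the difference itself called 4 genes, 0.0311% of all genes tested. The 14 of the 98 that were lower here at an unadjusted p under 0.05 were Vegfa, Nlrp3, Klk1b11, Mex3b, Creb5, Itga6, Ndrg2 and 7 genes of lipid synthesis, namely Cyp51, Sqle, Acat2, Insig1, Fdps, Fads2 and Scd2. Itga6, the integrin alpha 6 chain, had 579, 526 and 434 CPM in 4OHT+Fer1 and 815, 765 and 615 CPM in Fer1, with no overlap (log2 fold change -0.51). The 3 of the 45 that were higher here at that p were Gpr162, Slamf8 and Ms4a4a. In each set, 1 gene had such a p in the opposite direction. Of all genes tested, 1.35% were lower and 0.716% higher at that p.

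**Figure D5:**
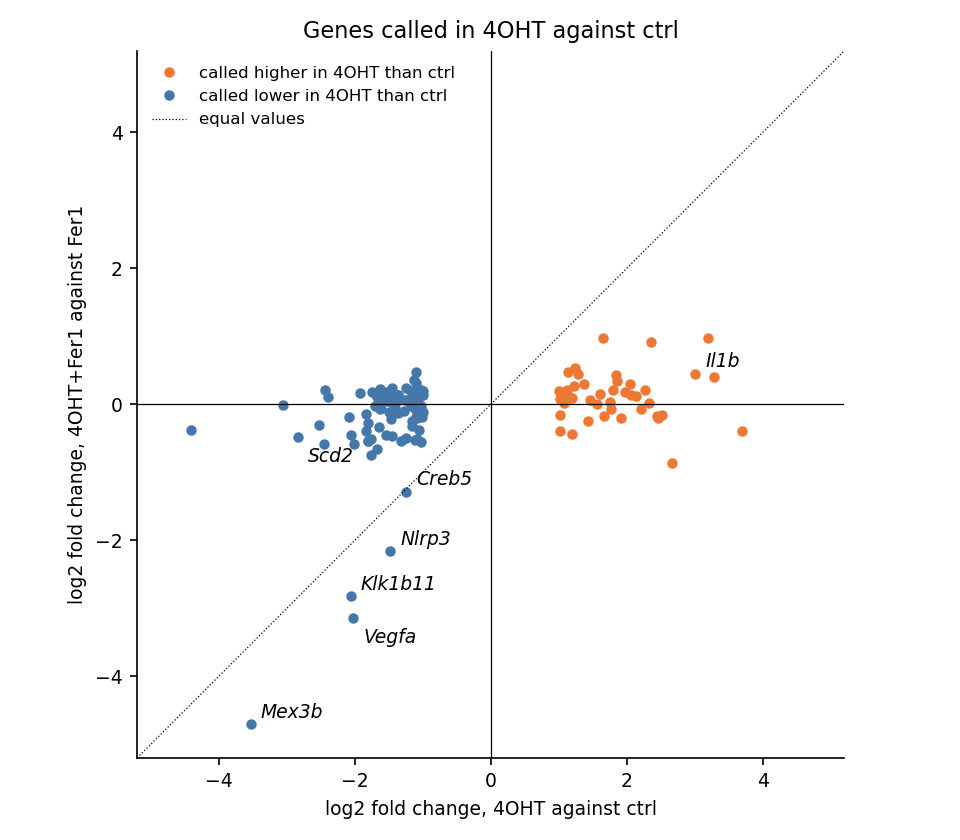
Log2 fold change in 4OHT+Fer1 against Fer1 of the 143 genes called in 4OHT against ctrl, plotted against their log2 fold change in that comparison. The comparisons share no sample, but share the replicate numbers and the fit. Most points lie near 0 on the vertical axis, and the dotted line marks equal values. All 45 genes called higher in 4OHT lie below that line, nearer to 0 or of the other sign here, while of the 98 called lower only Vegfa, Klk1b11, Nlrp3, Creb5 and Mex3b lie below it, further from 0 here.

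The question of which genes answered 4OHT differently with and without Fer-1 was put to a test of the difference of both log2 fold changes. It called 4 genes (0.0311% of those tested), and 0 without the replicate block, without replicate 1 or without replicate 2. Without replicate 3, 3 of the 4 were called (Clspn, Id3 and Scd2), and without replicate 1 of 4OHT+Fer1 alone Clspn and Scd2. Scd2 had a log2 fold change of -0.48 with and -2.84 without Fer-1, and Fads2 one of -0.59 and -2.45. Clspn, the checkpoint adaptor Claspin of replicating cells, had 39.9, 44.7 and 43.5 CPM in 4OHT+Fer1 and 34.0, 44.5 and 39.0 CPM in Fer1, a log2 fold change of 0.13 (95% interval -0.16 to 0.42), against -1.57 without Fer-1. Id3 was at 7.21, 3.82 and 7.99 against 9.03, 10.8 and 14.3 CPM with Fer-1, a log2 fold change of -0.87, and at 2.66 without it.

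The differences within replicate numbers varied from pair to pair. Within replicate numbers 1, 2 and 3, 9.32%, 8.17% and 4.31% of genes differed more than 2-fold in CPM between 4OHT+Fer1 and Fer1. Across genes, which are not independent replicates and share the libraries of a pair, the differences of log2 CPM correlated between pairs at r = -0.17 for replicates 1 and 2, 0.03 for 1 and 3 and 0.17 for 2 and 3. Between 4OHT and ctrl, 10.9%, 8.51% and 20.3% of genes differed more than 2-fold within replicate numbers 1, 2 and 3. The same correlations there were 0.42, -0.03 and 0.02.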

How the data were processed

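The libraries of pBMDM RNA cover the 3′ ends of transcripts (QuantSeq). The authors used STAR 2.7.10a and Salmon 1.5.2 (nf-core) and deposited expected counts for each gene, with no normalization. Their processing notes list GRCh38 and GRCm38 and the methods name a human genome, although the identifiers are those of mouse genes. Positions are therefore those of GENCODE M21 (GRCm38), which holds 99.7% of the tested identifiers. The deposited table of the authors' DESeq2 comparisons was not used, including its 14 columns of per-sample CPM.

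The expected counts of 55414 genes were rounded to whole numbers (30109 values were not whole), where the plan had assumed counts. A quasi-likelihood model of edgeR 4.0.16 in R 4.3.3 took all 14 samples, which share 1 estimate of the spread, with TMM scaling, filterByExpr (minimum count 10) and terms for group and replicate number. Intervals of 95% are Wald intervals from this model. The log2 CPM differences of pairs had a prior count of 2.

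The replicate number was assumed to be the mouse, which the methods put in their design. Samples of 1 number deviated together from their groups (r across genes of 0.320, 0.176 and 0.646 between the 4OHT+Fer1 and Fer1 samples of replicates 1, 2 and 3). No culture of origin is given beyond it, so p-values measure the spread between these samples. No samples of a group agreed within sampling noise (chi-square per degree of freedom of 8.39 to 59.0). Single values were not tested by permutation, since 3 samples against 3 allow no p below 0.1.

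The comparison, the gene lists and the marker lists were chosen with earlier results of these data known, and lists are given by counts and medians, with no test. Named were the called genes, up to 12 genes a direction by unadjusted p with the same direction in each pair and at least 5 CPM, without predicted genes, up to 4 genes a list by p, genes that the account of the series names and those called in the test of the difference. Other genes were chosen after their values were seen, as members of a list or count. A few genes go unreported. Promoter windows are those of RefSeq. Alternatives were DESeq2 1.42.0, no replicate block, only the 2 groups, other scaling factors and filters, each replicate left out and, chosen after seeing the data, replicate 1 of 4OHT+Fer1 left out alone. The tests were tried first on simulated data.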

Additional observations from a re-analysis of the deposited data

Results flagged for a closer look

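The test of whether the response to 4OHT differed with and without Fer-1 called 4 genes (edgeR F-test, Benjamini-Hochberg over all genes). None of the 4 was called without the replicate block or without replicate 1 or 2. Values are the log2 fold change of 4OHT+Fer1 against Fer1 minus that of 4OHT against ctrl. For Scd2, a stearoyl-CoA desaturase, the difference was 2.36 (SE 0.27, adjusted p = 0.00939, edgeR), and its level was 19.5, 14.6 and 3.16 CPM in 4OHT, 118, 129 and 21 CPM in ctrl and 4.83 and 2.56 CPM in fresh medium. For Fads2, the delta-6 desaturase, it was 1.86 (SE 0.26, adjusted p = 0.0423, edgeR), with 12.5, 11.8 and 2.66 CPM in 4OHT, 48.6, 70.9 and 21.1 CPM in ctrl and 2.29 and 2.34 CPM in fresh medium.

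Clspn, an adaptor of the replication checkpoint, differed by 1.70 (SE 0.19, adjusted p = 0.00939, edgeR). It had 13.3, 16.3 and 12.9 CPM in 4OHT, 38.7, 49.4 and 38.5 CPM in ctrl and 5.59 and 7.45 CPM in fresh medium. Id3, an inhibitor of DNA binding, differed in the other direction by -3.53 (SE 0.50, adjusted p = 0.0489, edgeR). It had 56.3, 60.8 and 72.5 CPM in 4OHT and 5.57, 5.33 and 24.6 CPM in ctrl. Fresh medium gave 286 and 216 CPM, above every sample of 4OHT. What lies behind these differences was not tested.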

How the results depend on the processing

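Called genes in 4OHT+Fer1 against Fer1 numbered 3 with edgeR, 9 with DESeq2 (11 without the fold threshold), 9 without the low-count filter and 0 with only the 2 groups. The 9 of DESeq2 and the 9 without the filter each included the 3. The replicate block mattered: without it 1 gene was called and 153 had an unadjusted p under 0.05. Without the filter 412 had such a p. Leaving out a replicate gave 0 to 2 called genes, 0 to 2 at an adjusted p under 0.05 and 134 to 379 at an unadjusted p under 0.05, and 532 without replicate 1 of 4OHT+Fer1 alone. The test of the difference called 4 genes, 76 with DESeq2, 0 without the replicate block, 32 without the filter and 0 to 26 with a replicate left out, or 2 without replicate 1 of 4OHT+Fer1 alone. Of the 4, Id3 was not called with scaling to total counts or with the filter of 1 CPM, and DESeq2 and edgeR without the filter called all 4. The causes of these changes were not tested.

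List medians near 0 moved. That of the aryl hydrocarbon receptor list was -0.15 with DESeq2, -0.055 without the block, -0.12 without the filter, and -0.27 to -0.068 with samples left out. That of immediate early genes was -0.0013 without the block, 0.0032 with only the 2 groups, -0.046 without the filter and -0.096 to -0.055 with samples left out. With samples left out, the median of the LXR list was -0.080 to 0.028, of S phase -0.048 to 0.090, of scavenger receptors -0.052 to 0.060, of hypoxia -0.28 to -0.0078, of estrogen response -0.15 to -0.0037, of the genes called higher in 4OHT 0.011 to 0.23 and of the ATF4 list -0.017 to 0.084. Log2 fold changes near 0 changed sign for Scd1 (0.0072 with DESeq2, and -0.29 to 0.33 with samples left out), Marco (-0.025 to 0.76), Ebp (-0.18 to 0.014), Ptger3 (-0.49 to 0.043) and Bcl2a1d (-0.089 to 0.33). No other gene named changed direction. Counts limit genes under 10 CPM most, where 43.5% or fewer of the intervals lay within 2-fold.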
